A study of Mus musculus with 19 samples.

Results

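Transcripts of 8 secreted T cell cytokines, Ifng, Il2, Il4, Il10, Il13, Il21, Csf2 and Areg, were followed in CD8+ and CD4+ T cells sorted from mouse liver metastases. The genes were taken by symbol from the expression tables of both cell types, where each occurred once among 25639 genes. The tumours grew from Venus-AKTPM/LOH colorectal cancer cells that had been injected into the spleen, and the T cells were collected on day 30. Every group carried loxP-flanked Tet2 alleles. Vav1CreTet2KO mice delete the gene with a Cre recombinase driven by Vav1, which is active across blood lineages. Cd4CreTet2KO mice delete it with a Cre driven by Cd4, which is active in developing T cells and so reaches both CD8+ and CD4+ T cells. Tet2fl/fl mice were the controls without deletion. The sources used here do not give the ages or sexes of the mice. The 19 libraries came from 11 mice, of which 8 gave both cell types. CD8 libraries numbered 3 for Vav1CreTet2KO, 4 for Cd4CreTet2KO and 3 for Tet2fl/fl, and each CD4 group had 3. Tet2 encodes a dioxygenase that oxidises 5-methylcytosine in DNA, and the series compared its loss throughout the blood with its loss in T cells.

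Activated T cells secrete these proteins in a lineage-dependent way. Ifng encodes interferon gamma, the main macrophage-activating product of CD8 T cells and of helper T cells that express Tbx21, and Csf2 encodes GM-CSF, which drives myeloid cells. Il2 encodes the T cell growth factor interleukin-2, and Il21 encodes a helper cytokine that sustains B cells and CD8 T cells. Il4 and Il13 encode the linked cytokines of allergic and anti-helminth responses. Il10 encodes an anti-inflammatory cytokine, and Areg encodes amphiregulin, a ligand of the epidermal growth factor receptor that tissue regulatory T cells release for repair. Their genes are switched on after T cell receptor signalling through NFAT and AP-1 factors, and many of their messenger RNAs are short-lived because decay proteins such as those of the Zfp36 family bind AU-rich pentamers, ATTTA in the DNA letters used here, in the 3′ untranslated region.

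The 3′ untranslated regions of most of the 8 genes were dense in this pentamer, which was counted on the sense strand with overlapping copies included, in the longest 3′ region of each gene's coding transcripts (GENCODE annotation of GRCm38). Csf2 had 9 copies in 317 bases, or 28.4 per kilobase. Of 1726 genes, Csf2 included, whose 3′ region was within 20% of that length, 0.0579% had as many, which is Csf2 alone. Il4 had 2 copies in 104 bases, Areg 4 in 253 bases, Il2 7 in 581 bases, Ifng 6 in 631 bases and Il10 6 in 706 bases. Il13 had 3 copies in 741 bases, or 4.05 per kilobase, and Il21 had 9 in 2578 bases, or 3.49 per kilobase. The median over 19925 genes was 1.35 per kilobase, and 6 of the 8 genes had at least 5 per kilobase against 7.49% of all genes. Il13 and Il21 were the exceptions. Of genes with a 3′ region of like length, each gene itself included, 18.2% and 15.1% held as many copies as they did. The richest stretch of 30 bases is shown for 5 genes that the results below turn on, 5′ to 3′, with the pentamers in capitals.
Csf2: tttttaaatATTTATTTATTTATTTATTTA
Areg: ataATTTATTTAatATTTAagtgttATTTA
Il2: ctATTTATTTAaatATTTAactttaATTTA
Ifng: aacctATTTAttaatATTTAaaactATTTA
Il13: atcttATTTAttatggttgtgtgttATTTA
The Csf2 stretch is 5 overlapping copies in a row, the Areg and Il2 stretches hold 4 each, the Ifng stretch holds 3 that do not overlap, and the Il13 stretch holds 2. The letters show that a pentamer is present in these windows and nothing of its use in these cells.

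**Figure D1:**
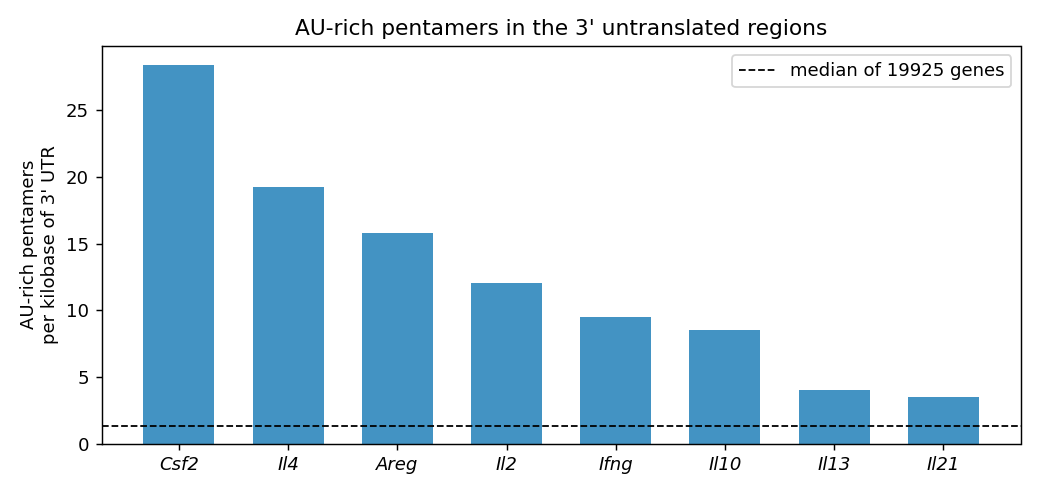
AU-rich pentamers per kilobase of 3′ untranslated region (vertical axis) in the 8 cytokine genes, with the median of 19925 genes as a dashed line. Csf2 stands highest at 28.4 per kilobase, and Il21 and Il13 are lowest at 3.49 and 4.05.

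The libraries set limits on these values. Total reads ran between 8189300 and 20327809 in CD8 libraries and between 707866 and 17575534 in CD4 libraries, the lowest being CD4 Vav1CreTet2KO replicate 1, in which 3 reads of Ifng are worth 1.34 RPKM (read number divided by gene length and by library size). Cd8a and Cd8b1 summed to between 231 and 428 RPKM in CD8 libraries and to at most 8.01 RPKM in CD4 libraries, and Cd4 was between 39.5 and 122.4 RPKM in CD4 libraries. CD8 Cd4CreTet2KO replicates 1 and 2 stood apart: 10 macrophage and monocyte markers summed to 350.3 and 184.3 RPKM there, against 8.64 to 74.4 RPKM in the other 8 CD8 libraries, and Cd4 was at 7.68 and 2.27 RPKM. Of gene counts between 1 and 20 reads, 50.6% were odd in CD8 Vav1CreTet2KO replicate 1, against 13.1% to 30.8% in the other 18 libraries, where low counts were mostly even. Without that library the Vav1CreTet2KO difference from Tet2fl/fl in CD8 cells was -3.50 for Csf2 and -0.67 for Ifng on the log2 scale. Heat shock genes summed to 1308 to 2058 RPKM in the knockout libraries of both cell types, against 3405 to 5323 RPKM in the controls. Tet2 itself averaged 4.93 ± 1.76 RPKM in Vav1CreTet2KO CD8 cells (SD, n = 3), 5.002 ± 1.90 RPKM in Cd4CreTet2KO CD8 cells (SD, n = 4) and 7.43 ± 0.77 RPKM in Tet2fl/fl CD8 cells (SD, n = 3). The Vav1CreTet2KO CD8 values, at most 6.28 RPKM, lay below the lowest control of 6.565 RPKM, as for 9.24% of genes above 0. That Tet2 difference did not pass (limma adjusted p = 0.404), and the Cd4CreTet2KO CD8 values overlapped the controls. In CD4 cells Tet2 averaged 4.24 ± 1.45 RPKM in Vav1CreTet2KO, 5.54 ± 1.52 RPKM in Cd4CreTet2KO and 5.04 ± 1.73 RPKM in Tet2fl/fl mice (SD, n = 3 each). These CD4 ranges overlapped. A total over all exons does not check a deletion of some of them.

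CD8 and CD4 cells differed in which cytokine made up the total. Ifng held 93.8 ± 2.82% of the summed RPKM of the 8 genes in Vav1CreTet2KO CD8 cells (SD, n = 3), 85.1 ± 11.2% in Cd4CreTet2KO CD8 cells (SD, n = 4) and 82.1 ± 2.69% in Tet2fl/fl CD8 cells (SD, n = 3). Csf2 held 1.90 ± 1.65% of the sum in Vav1CreTet2KO CD8 cells and 8.67 ± 8.45% in Cd4CreTet2KO CD8 cells, against 14.7 ± 2.63% in Tet2fl/fl CD8 cells (SD, n = 3, 4 and 3). In CD4 cells Areg held a large share as well. Areg held 36.4 ± 19.1% of the sum in Vav1CreTet2KO CD4 cells, 68.7 ± 9.62% in Cd4CreTet2KO CD4 cells and 39.9 ± 3.12% in Tet2fl/fl CD4 cells (SD, n = 3 each). Ifng held 47.6 ± 22.2% in Vav1CreTet2KO CD4 cells, 13.6 ± 2.34% in Cd4CreTet2KO CD4 cells and 34.2 ± 4.38% in Tet2fl/fl CD4 cells (SD, n = 3 each). The summed level itself averaged 116 ± 57.9 RPKM in Vav1CreTet2KO, 43.1 ± 31.1 RPKM in Cd4CreTet2KO and 158 ± 50.0 RPKM in Tet2fl/fl CD8 cells, and 88.8 ± 56.8, 65.3 ± 21.5 and 60.7 ± 21.1 RPKM in Vav1CreTet2KO, Cd4CreTet2KO and Tet2fl/fl CD4 cells. The cell types came in separate tables, so levels are set side by side across them without a test.

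**Figure D2:**
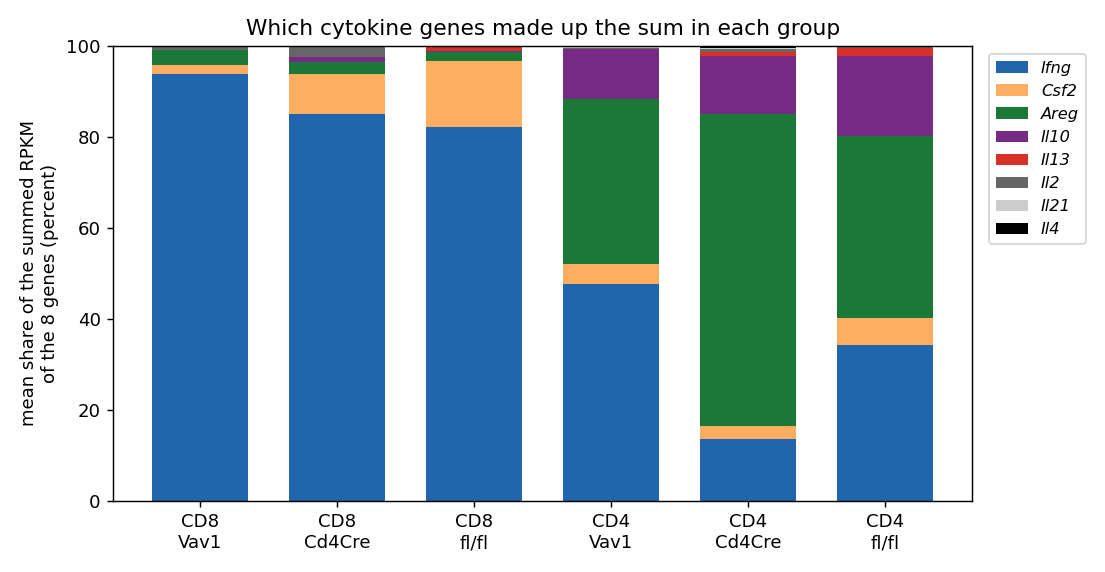
Mean share (percent, vertical axis) of each gene in the summed RPKM of the 8 cytokine genes, for CD8 and CD4 groups of Vav1CreTet2KO (Vav1), Cd4CreTet2KO (Cd4Cre) and Tet2fl/fl (fl/fl) mice. Ifng fills 82.1% to 93.8% of the CD8 bars, Csf2 is widest in CD8 controls at 14.7%, and Areg is widest in Cd4CreTet2KO CD4 cells at 68.7%.

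Within each genotype every CD8 library had more Ifng than every CD4 library, a pattern that 6.84% of 11121 genes shared in Vav1CreTet2KO mice, 6.66% in Cd4CreTet2KO mice and 11.7% in Tet2fl/fl mice. Areg and Il10 were the other way round in all 3 genotypes, and 2.33%, 11% and 10.8% of genes had CD4 libraries above CD8 libraries in Vav1CreTet2KO, Cd4CreTet2KO and Tet2fl/fl mice. The Areg ranges did not meet even across genotypes, with a highest CD8 value of 8.44 RPKM and a lowest CD4 value of 13.4 RPKM, which 0.189% of genes showed in that direction. Csf2 was higher in CD8 than in CD4 cells beyond the spread of the libraries in Tet2fl/fl mice only, at 23.4 ± 10.2 RPKM in CD8 cells and 3.32 ± 1.07 RPKM in CD4 cells (SD, n = 3 each), and its ranges met in both knockouts. Ordered by mean RPKM over the 6 groups, Ifng was at 129 in Tet2fl/fl CD8, 108 in Vav1CreTet2KO CD8, 36.6 in Cd4CreTet2KO CD8, 34.2 in Vav1CreTet2KO CD4, 20.6 in Tet2fl/fl CD4 and 9.18 in Cd4CreTet2KO CD4 cells. Neighbours among the first 4 groups overlapped, and each of the last 2 did not overlap the group before it. For Csf2 the first place, Tet2fl/fl CD8 cells, stood clear, and neighbours among the other 5 groups overlapped.

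**Figure D3:**
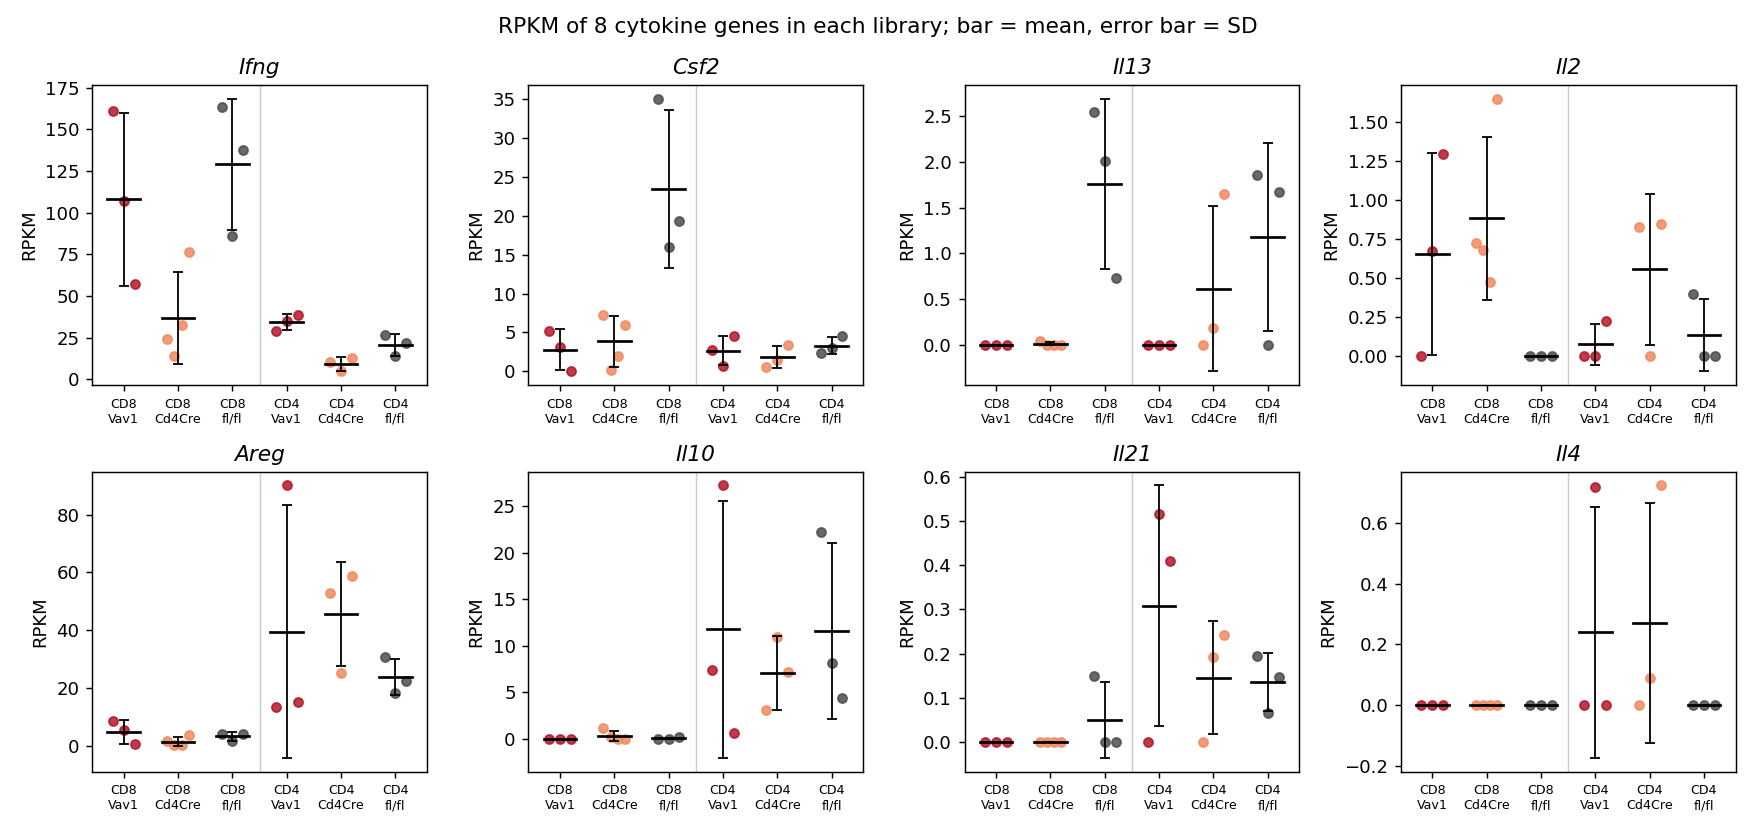
RPKM (vertical axis, a separate linear scale for each gene) of the 8 cytokine genes in every library, grouped by cell type and by Vav1CreTet2KO (Vav1), Cd4CreTet2KO (Cd4Cre) and Tet2fl/fl (fl/fl) mice. Points are libraries, horizontal bars are means and error bars are SDs, and Csf2 and Il13 in both CD8 knockout groups lie below the CD8 controls.

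Deletion of Tet2 was compared with Tet2fl/fl in CD8 cells with limma on log2(RPKM + 1), which understates the change of low genes. Only Ifng, Csf2 and Areg had at least 1 RPKM in at least 3 of the CD8 libraries and were tested. None of these 3 passed an adjusted p of 0.05 (Benjamini-Hochberg over 10224 genes) in Vav1CreTet2KO cells, where 1.46% of all genes tested passed, or in Cd4CreTet2KO cells, where 0.567% passed. At an unadjusted p under 0.05 there were 1 for Vav1CreTet2KO, Csf2, and 2 for Cd4CreTet2KO, Ifng and Csf2, against 17.3% and 12.4% of the 10224 genes. Whole reads could be recovered from the CD8 values. On them edgeR called none of 5 cytokine genes in either comparison, and 0.675% of 13483 genes for Vav1CreTet2KO and 0.475% for Cd4CreTet2KO. DESeq2 on the same reads called 2 of the 5 for Vav1CreTet2KO and 3 for Cd4CreTet2KO, against 6.17% of 13105 and 4.22% of 12849 genes with an adjusted p. In bulk RNA, fewer cells that make a cytokine and less RNA per cell cannot be told apart.

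In CD8 cells Ifng lay below the controls in every Cd4CreTet2KO mouse and overlapped them in Vav1CreTet2KO mice, and neither difference passed the adjusted threshold. The Vav1CreTet2KO CD8 libraries had 161, 107 and 57.0 RPKM. The Cd4CreTet2KO CD8 libraries had 24.0, 13.8, 32.3 and 76.2 RPKM, and the Tet2fl/fl CD8 libraries had 163.5, 86.0 and 137.8 RPKM. All 4 Cd4CreTet2KO values lay below the lowest control, while 2 of the 3 Vav1CreTet2KO values lay within the control range. The log2 difference from Tet2fl/fl was -2.01 for Cd4CreTet2KO (SE 0.49, limma adjusted p = 0.0954) and -0.32 for Vav1CreTet2KO (SE 0.53, limma adjusted p = 0.782). The Cd4CreTet2KO difference passed with DESeq2 on recovered reads (-1.60, adjusted p = 0.0198), with the fit limited to the 2 compared groups (adjusted p = 0.0486) and without Cd4CreTet2KO replicate 4 (-2.44, adjusted p = 0.0448). In the authors' deposited table the log2 fold change was -1.59 with an FDR of 0.00472. Without the 2 libraries of high macrophage markers, Cd4CreTet2KO replicates 1 and 2, the limma difference was -1.31 (adjusted p = 0.510). The other 2 replicates, at 32.3 and 76.2 RPKM, still lay below the lowest control. Cd3e, the shared T cell receptor chain gene, was at 131 to 180 RPKM in Cd4CreTet2KO CD8 libraries, against 202 to 298 RPKM in Tet2fl/fl ones, and 6 T cell markers together summed to 439 to 707 RPKM, against 668 to 977 RPKM. The 6 natural killer cell markers summed to 45.3 to 170.9 RPKM in Vav1CreTet2KO CD8 libraries, against 16.1 to 32.8 RPKM in Tet2fl/fl ones. In Cd4CreTet2KO CD8 libraries they summed to 23.4 to 96.0 RPKM. The part of T cell content, natural killer cell content and heat shock transcripts in the CD8 Ifng values was not tested.

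Csf2 separated all CD8 knockout libraries from all CD8 controls. It had 5.19, 3.16 and 0 RPKM in Vav1CreTet2KO CD8 libraries. The Cd4CreTet2KO CD8 libraries had 7.30, 0.21, 1.96 and 5.95 RPKM, and the Tet2fl/fl CD8 libraries had 35.1, 16.0 and 19.3 RPKM. Every knockout library of either kind lay below every control, and 1 Vav1CreTet2KO library had no read. The log2 difference was -2.97 for Vav1CreTet2KO (SE 0.74, limma adjusted p = 0.0682) and -2.61 for Cd4CreTet2KO (SE 0.69, limma adjusted p = 0.117). The Vav1CreTet2KO difference kept its size and passed when Cd4CreTet2KO replicate 2 was left out of the shared fit (adjusted p = 0.0440), and also when both libraries of high macrophage markers were left out (adjusted p = 0.037). The Cd4CreTet2KO difference passed with the fit limited to the 2 compared groups (adjusted p = 0.0441) and was -2.35 without those 2 libraries (adjusted p = 0.363). The Vav1CreTet2KO difference was smaller, at -2.19 (adjusted p = 0.112), without its replicate 3, the library with no read. The authors' deposited table gives Csf2 an FDR of 0.0616 for Vav1CreTet2KO and 0.211 for Cd4CreTet2KO. The sums of heat shock genes separated the same libraries. So did Cd3e, at 130.8 to 199.6 RPKM in the 7 CD8 knockout libraries against 201.7 to 298.4 RPKM in the controls, and Cd8a, at 99.9 to 168.9 RPKM against 178.8 to 229.8 RPKM, while the sum of the 6 T cell markers overlapped the controls in both knockouts. The 10 dendritic cell and MHC class II genes summed to 1036 to 2864 RPKM in Vav1CreTet2KO and 352.6 to 2984 RPKM in Cd4CreTet2KO CD8 libraries, against 66.4 to 412.4 RPKM in Tet2fl/fl ones. The part of these in the Csf2 difference was not tested.

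Il13 was nearly missing from CD8 knockouts and was found in all CD8 controls. No Vav1CreTet2KO CD8 library had a read, and of the 4 Cd4CreTet2KO CD8 libraries only replicate 1 had any, at 2 reads or 0.0373 RPKM. The Tet2fl/fl CD8 libraries had 2.55, 2.01 and 0.73 RPKM, which were 52, 56 and 24 reads. The ranges did not meet, and 3 reads would be worth 0.0422 to 0.137 RPKM in the 7 knockout libraries. Il13 did not reach the level filter. With no filter it was the cytokine gene of smallest p, with a log2 difference of -1.40 for Vav1CreTet2KO (SE 0.22, limma adjusted p = 0.0571) and -1.39 for Cd4CreTet2KO (SE 0.21, limma adjusted p = 0.0675). DESeq2 on recovered reads called it in both comparisons (adjusted p = 0.0243 for Vav1CreTet2KO and 0.0247 for Cd4CreTet2KO), and edgeR on the same reads did not (adjusted p = 0.162 and 0.199). The authors' deposited table gives it an FDR of 0.156 for Vav1CreTet2KO and 0.0114 for Cd4CreTet2KO. Il1rl1, the receptor of interleukin-33 on cells that make Il13, was at 0, 0 and 0.0633 RPKM in Vav1CreTet2KO CD8 libraries and at 0.114, 0.0442, 0.0393 and 0 RPKM in Cd4CreTet2KO ones, against 0.899, 0.695 and 0.804 RPKM in Tet2fl/fl ones. The 6 markers of innate lymphoid cells that include it summed to 1.65 to 4.404 RPKM in Vav1CreTet2KO CD8 libraries and to 0.956 to 40.3 RPKM in Cd4CreTet2KO ones, against 6.62 to 8.37 RPKM in Tet2fl/fl ones, with Il17rb at 0 throughout Vav1CreTet2KO and Hs3st1 at 0 throughout Tet2fl/fl. The 6 mast cell and basophil markers summed to at most 7.05 RPKM in Vav1CreTet2KO, 0.0580 RPKM in Cd4CreTet2KO and 0.0791 RPKM in Tet2fl/fl CD8 libraries, with Cpa3 and Mcpt8 at 0 in all 10. The part of innate lymphoid cells in the Il13 difference was not tested.

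Il2 ran the other way. It was detected in 2 of 3 Vav1CreTet2KO CD8 libraries, at 0, 0.67 and 1.30 RPKM, and in all 4 Cd4CreTet2KO CD8 libraries, at 0.73, 0.68, 0.47 and 1.65 RPKM (18 to 77 reads). The 3 Tet2fl/fl CD8 libraries had no Il2 read, where 3 reads would be worth 0.0956 to 0.155 RPKM. The Cd4CreTet2KO and control ranges therefore did not meet, at levels far below those of Ifng. With no filter the difference was 0.88 for Cd4CreTet2KO (SE 0.29, limma adjusted p = 0.354). DESeq2 on recovered reads called Il2 for Cd4CreTet2KO (adjusted p = 0.0224) and for Vav1CreTet2KO (adjusted p = 0.0415), whereas edgeR on the same reads did not (adjusted p = 0.259 and 0.212). The authors' deposited table gives an FDR of 0.243 for Cd4CreTet2KO and 0.278 for Vav1CreTet2KO. Heat shock genes summed to 2007 to 2050 RPKM in Vav1CreTet2KO and 1566 to 2036 RPKM in Cd4CreTet2KO CD8 libraries, against 3414 to 4828 RPKM in Tet2fl/fl ones. Their part in the Il2 difference was not tested, nor was that of the MHC class II, Cd3e and Cd8a levels given for Csf2.

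Among all 8 genes, 2 (Csf2 and Il13) lay lower in Vav1CreTet2KO than in Tet2fl/fl CD8 cells without overlap, which 9.24% of 18589 genes with a value above 0 did. In Cd4CreTet2KO CD8 cells 3 (Ifng, Csf2 and Il13) lay lower without overlap, against 9.44% of 17855 genes, and 1 (Il2) lay higher, against 3.25%. Areg overlapped between the CD8 groups, at 8.44, 5.26 and 0.43 RPKM in Vav1CreTet2KO, 1.74, 0.14, 0.10 and 3.70 RPKM in Cd4CreTet2KO and 3.89, 1.49 and 4.14 RPKM in Tet2fl/fl libraries. Its log2 difference was 0.14 for Vav1CreTet2KO (SE 0.69, limma adjusted p = 0.937) and -0.99 for Cd4CreTet2KO (SE 0.65, limma adjusted p = 0.595), and the sign of the first depended on single libraries. Il10 had no read in Vav1CreTet2KO CD8 cells, 1.17, 0.18, 0 and 0 RPKM in Cd4CreTet2KO and 0, 0 and 0.17 RPKM in Tet2fl/fl ones. Its highest value fell in the library with the most macrophage marker RNA and the most Cd4. Il21 was read in 1 CD8 library only, Tet2fl/fl replicate 1 at 0.15 RPKM, and Il4 in none, where 3 reads would be worth 0.0517 to 0.180 RPKM.

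In CD4 cells Ifng was highest in Vav1CreTet2KO and lowest in Cd4CreTet2KO mice. The comparison used edgeR's quasi-likelihood test on the deposited counts, for which 7 of the 8 genes (all but Il4) were abundant enough. The Vav1CreTet2KO CD4 libraries had 29.1, 34.9 and 38.7 RPKM of Ifng. The Cd4CreTet2KO CD4 libraries had 10.2, 4.67 and 12.7 RPKM, and the Tet2fl/fl CD4 libraries had 26.5, 13.8 and 21.5 RPKM. The 3 groups did not overlap: Vav1CreTet2KO was highest, Tet2fl/fl lay between, and Cd4CreTet2KO was lowest. The lowest Vav1CreTet2KO value, 29.1 RPKM, was 65 reads of replicate 1, the library of 707866 total reads. The highest control was 26.5 RPKM, so the edge between these groups is not firm. The log2 difference from Tet2fl/fl was 0.86 for Vav1CreTet2KO (SE 0.48, edgeR adjusted p = 0.508) and -1.08 for Cd4CreTet2KO (SE 0.48, edgeR adjusted p = 0.9998), so neither passed.

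None of the 7 cytokine genes tested passed in either CD4 comparison with Tet2fl/fl, where 0.00738% of 13554 genes passed for Vav1CreTet2KO and 0.0295% for Cd4CreTet2KO. At an unadjusted p under 0.05 there was 1 in each, Il13 for Vav1CreTet2KO and Ifng for Cd4CreTet2KO, against 11.9% and 2.5% of the 13554 genes. DESeq2 called 0 cytokine genes in both, and 3.63% of 12509 genes with an adjusted p for Vav1CreTet2KO and 0.196% of 13261 for Cd4CreTet2KO. Ifng was the 1 gene of the 8 whose ranges did not meet, higher for Vav1CreTet2KO, which 2.34% of 19143 genes with a value above 0 were, and lower for Cd4CreTet2KO, which 5.94% of 18769 were. Foxp3, the defining factor of regulatory T cells, was at 6.15, 53.6 and 20 RPKM in Vav1CreTet2KO CD4 libraries and at 52.6, 94.4 and 69.7 RPKM in Cd4CreTet2KO ones, against 76.6, 77.4 and 51.7 RPKM in Tet2fl/fl ones. The 6 natural killer cell markers summed to 51.8 to 157.5 RPKM in Vav1CreTet2KO CD4 libraries and to 7.53 to 17.1 RPKM in Cd4CreTet2KO ones, against 3.58 to 28.4 RPKM in Tet2fl/fl ones, with Klra8 at 0 in all 9 CD4 libraries and Eomes at 0 in the Vav1CreTet2KO ones. Of these 6 markers, 5 were at 0 in Vav1CreTet2KO replicate 1, 3 in replicate 2 and 2 in replicate 3. Macrophage and monocyte markers summed to 35.4 to 108.6 RPKM in Vav1CreTet2KO CD4 libraries. They summed to 6.37 to 18.2 RPKM in Cd4CreTet2KO and to 4.88 to 91.05 RPKM in Tet2fl/fl ones. Dendritic cell and MHC class II genes summed to 479.7 to 923.8, 100.8 to 275.7 and 97.9 to 252.1 RPKM in these groups. The part of regulatory T cell, natural killer cell, macrophage or dendritic cell content in the Ifng order was not tested.

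By mean RPKM Areg was the most abundant of the 8 in each CD4 group. In Vav1CreTet2KO replicates 1 and 3, however, Ifng was the higher, at 29.1 and 38.7 RPKM against 13.4 and 15.1 RPKM. Areg averaged 39.55 RPKM in Vav1CreTet2KO, 45.6 in Cd4CreTet2KO and 23.8 in Tet2fl/fl cells, where Ifng averaged 34.2, 9.18 and 20.6 RPKM. Areg had 13.4, 90.2 and 15.1 RPKM in Vav1CreTet2KO CD4 libraries. The Cd4CreTet2KO CD4 libraries had 52.7, 25.2 and 58.9 RPKM, and the Tet2fl/fl CD4 libraries had 30.6, 18.2 and 22.5 RPKM. The groups overlapped, and the Vav1CreTet2KO mean rested on replicate 2. The log2 difference from Tet2fl/fl was 0.78 for Vav1CreTet2KO (SE 0.59, edgeR adjusted p = 0.659), which was -0.54 without that replicate, and 1.03 for Cd4CreTet2KO (SE 0.59, edgeR adjusted p = 0.9998).

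Il10 overlapped widely between the CD4 groups. It had 7.44, 27.2 and 0.63 RPKM in Vav1CreTet2KO, 3.09, 11.0 and 7.25 RPKM in Cd4CreTet2KO and 22.2, 8.11 and 4.39 RPKM in Tet2fl/fl CD4 libraries. Its log2 difference from Tet2fl/fl was 0.08 for Vav1CreTet2KO (SE 0.98, edgeR adjusted p = 0.987) and -0.54 for Cd4CreTet2KO (SE 0.98, edgeR adjusted p = 0.9998). The library with the most Il10, Vav1CreTet2KO replicate 2, was also the one with the most Areg. Without it the Il10 difference for Vav1CreTet2KO was -1.48.

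The other 4 genes were low in CD4 cells. Csf2 was at 2.71, 0.75 and 4.54 RPKM in Vav1CreTet2KO, 0.59, 1.47 and 3.34 RPKM in Cd4CreTet2KO and 2.42, 3.03 and 4.50 RPKM in Tet2fl/fl libraries, so the separation seen in CD8 cells was not seen here. The 2.71 RPKM of Vav1CreTet2KO replicate 1 is only 4 reads, and 3 reads of Csf2 are worth 2.03 RPKM there. Il13 had no read in the 3 Vav1CreTet2KO CD4 libraries, 0, 0.18 and 1.65 RPKM in Cd4CreTet2KO ones and 1.86, 0 and 1.68 RPKM in Tet2fl/fl ones. A control without reads makes the Il13 groups overlap, and in Vav1CreTet2KO replicate 1 as many as 1.35 RPKM would be needed for 3 reads. Il2 reached at most 0.85 RPKM, in Cd4CreTet2KO replicate 3, and Il21 at most 0.51 RPKM, in Vav1CreTet2KO replicate 2. Il4 was read in 3 of the 9 CD4 libraries, 1 of Vav1CreTet2KO at 0.72 RPKM and 2 of Cd4CreTet2KO at 0.09 and 0.73 RPKM, and in no Tet2fl/fl library. The adjusted p of Csf2, Il13, Il2 and Il21 in the 2 CD4 comparisons lay between 0.400 and 0.9998 (edgeR).

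**Figure D4:**
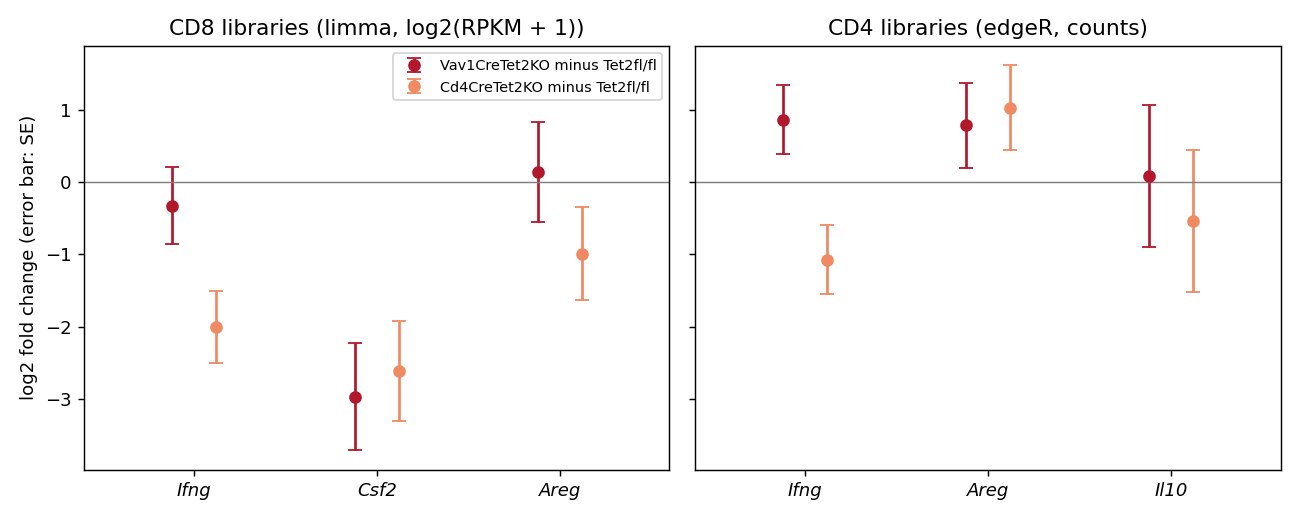
Log2 fold change from Tet2fl/fl (vertical axis, error bars are SEs) of Ifng, Csf2 and Areg in CD8 libraries by limma and of Ifng, Areg and Il10 in CD4 libraries by edgeR, for Vav1CreTet2KO and Cd4CreTet2KO. Csf2 lies at -2.97 for Vav1CreTet2KO and -2.61 for Cd4CreTet2KO in CD8 cells, Ifng there at -0.32 and -2.01, and in CD4 cells Ifng lies on opposite sides of 0.

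With the knockouts set directly against each other, Ifng had the smallest p of the cytokine genes tested in both cell types. In CD8 cells Vav1CreTet2KO averaged 108 ± 52.0 RPKM (SD, n = 3) and Cd4CreTet2KO 36.6 ± 27.5 RPKM (SD, n = 4), a log2 difference of 1.68 (SE 0.49), and the ranges overlapped. It missed the threshold with limma (adjusted p = 0.721), where 0% of genes passed and 649, or 6.35%, had an unadjusted p under 0.05. On recovered reads edgeR and DESeq2 called no cytokine gene either, and 0% and 0.483% of all genes. Without Cd4CreTet2KO replicates 1 and 2 the difference was 0.98 (adjusted p = 0.908). In CD4 cells Vav1CreTet2KO averaged 34.2 ± 4.83 RPKM and Cd4CreTet2KO 9.18 ± 4.10 RPKM (SD, n = 3 each), a log2 difference of 1.94 (SE 0.49) with no overlap, which 3.06% of 19159 genes had in that direction. It did not pass with edgeR (adjusted p = 0.152, where 0.0664% of genes passed) and did with DESeq2 (adjusted p = 0.00338, where 3.24% passed) and with edgeR without a filter (adjusted p = 0.0347, where 2% passed). Of the 3 cytokine genes tested in CD8 cells and of the 7 in CD4 cells, Ifng was the only 1 at an unadjusted p under 0.05 in each, and in CD4 cells 1449 genes, or 10.7%, had such a p. These knockout contrasts share libraries with those against Tet2fl/fl. The part of natural killer cell content and of the other marker levels given above in them was not tested.

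Whether deletion acted differently in the cell types was tested as an interaction in limma over all 19 libraries, for 5 of the 8 genes. Csf2 had the largest estimate: its Vav1CreTet2KO difference from Tet2fl/fl was lower by 2.61 on the log2 scale in CD8 than in CD4 cells (-2.61, SE 0.98, adjusted p = 0.434), and that of Cd4CreTet2KO was -1.89 (SE 0.95, adjusted p = 0.937). For Ifng the estimates were -1.07 (SE 0.69, adjusted p = 0.634) for Vav1CreTet2KO and -0.87 (SE 0.67, adjusted p = 0.9999) for Cd4CreTet2KO. None of the 5 genes passed in either interaction, where 0% of 11121 genes passed for Vav1CreTet2KO and 0.0629% for Cd4CreTet2KO. At an unadjusted p under 0.05 there was 1, Csf2, for Vav1CreTet2KO and 0 for Cd4CreTet2KO, against 1024 (9.21%) and 636 (5.72%) of all genes.

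Other genes of the pathways were read from lists of 18 further cytokines, 13 receptors, 21 transcription regulators, 7 decay factors, 17 interferon gamma-induced genes and 12 early genes of receptor signalling. Over all lists and comparisons, 1 gene passed. Prdm1, the repressor Blimp-1 that is known to hold down Ifng and Il2 in T cells, fell in Cd4CreTet2KO CD8 cells (1 lower and 0 higher of 21 regulators tested, where 0.489% of all genes fell). It was at 3.83, 1.81, 1.11 and 3.19 RPKM there, against 12.1, 10.1 and 10.7 RPKM in Tet2fl/fl CD8 cells (log2 difference -1.85, SE 0.37, limma adjusted p = 0.0496). The call was lost in 8 of 10 fits without 1 replicate, with adjusted p up to 0.355, and in 5 of 7 other settings, where the adjusted p ran from 0.00078 to 0.254, the highest being without both libraries of high macrophage markers. No Cd4CreTet2KO library reached the controls, which held for 9.44% of genes with a value above 0. In Vav1CreTet2KO CD8 cells Prdm1 was at 1.99, 7.055 and 2.90 RPKM (mean 3.98 ± 2.70 RPKM, SD, n = 3). None of these reached the controls either, which held for 9.24% of genes, and the difference did not pass. In the Cd4CreTet2KO CD8 comparison the regulators had a median log2 difference of -0.52, against -0.15 over all genes tested, and 17 of the 21 were negative. In the Vav1CreTet2KO CD8 comparison their median was -0.40, against -0.11, and 13 were negative. The 12 early genes, which include Jun, Egr2 and Nr4a3 and are induced by receptor signalling, were all negative in the Cd4CreTet2KO CD8 comparison. Their median was -0.53, against -0.15 over all genes, and none passed. The part of the heat shock and macrophage marker levels given above in this shift was not tested. In Vav1CreTet2KO CD8 cells 6 of the 12 early genes were positive and 6 negative (median -0.01, against -0.11 over all genes). In CD4 cells 10 of the 12 were negative for Vav1CreTet2KO (median -0.62, against -0.16 over all genes) and 7 for Cd4CreTet2KO (median -0.21, against 0.00). The 17 interferon gamma-induced genes had medians of 0.25 in Vav1CreTet2KO and -0.18 in Cd4CreTet2KO CD8 cells, and of -0.52 and -0.23 over the 16 tested in Vav1CreTet2KO and Cd4CreTet2KO CD4 cells, against medians over all genes of -0.11, -0.15, -0.16 and 0.00. Ciita, the master regulator of MHC class II genes, had the smallest p of that list in both CD8 comparisons and did not pass. It averaged 6.396 ± 2.32 RPKM in Vav1CreTet2KO CD8 cells and 7.85 ± 6.68 RPKM in Cd4CreTet2KO ones, against 1.38 ± 1.96 RPKM in Tet2fl/fl ones (SD, n = 3, 4 and 3), and 10 dendritic cell and MHC class II genes summed to 1036 to 2864, 352.6 to 2984 and 66.4 to 412.4 RPKM in these groups, whose part in the Ciita levels was not tested. The decay factors did not pass in any comparison.

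Genes with the pattern most like each of the 4 more abundant cytokines were found by Pearson's r of log2(RPKM + 1) over the 19 libraries, which share 2 tables, 11 mice and differing depth. Tbx21, the T-bet gene, was the closest to Ifng (r = 0.909 over 19 libraries, 0.932 over the CD8 and 0.715 over the CD4 libraries), followed by Thy1 (r = 0.886) and Cd226 (r = 0.869). Tbx21 averaged 38.7 ± 13.0 RPKM in Vav1CreTet2KO, 18.1 ± 7.62 RPKM in Cd4CreTet2KO and 36.6 ± 6.21 RPKM in Tet2fl/fl CD8 cells (SD, n = 3, 4 and 3). Csf2 was closest to Gpm6b (r = 0.856) and Vipr2 (r = 0.842), and over CD4 libraries alone these had r of 0.50 and 0.17. Il10 was closest to Tmem154 (r = 0.928), Ass1 (r = 0.913) and Maf (r = 0.894), and within CD8 libraries, where Il10 was nearly absent, Maf had r = 0.05. Areg was closest to Maf (r = 0.927 over 19 libraries, 0.833 over the CD8 and 0.479 over the CD4 libraries), Glrx (r = 0.909) and Il2ra (r = 0.905), and Maf averaged 1.54 RPKM in CD8 and 15.9 RPKM in CD4 libraries.

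**Figure D5:**
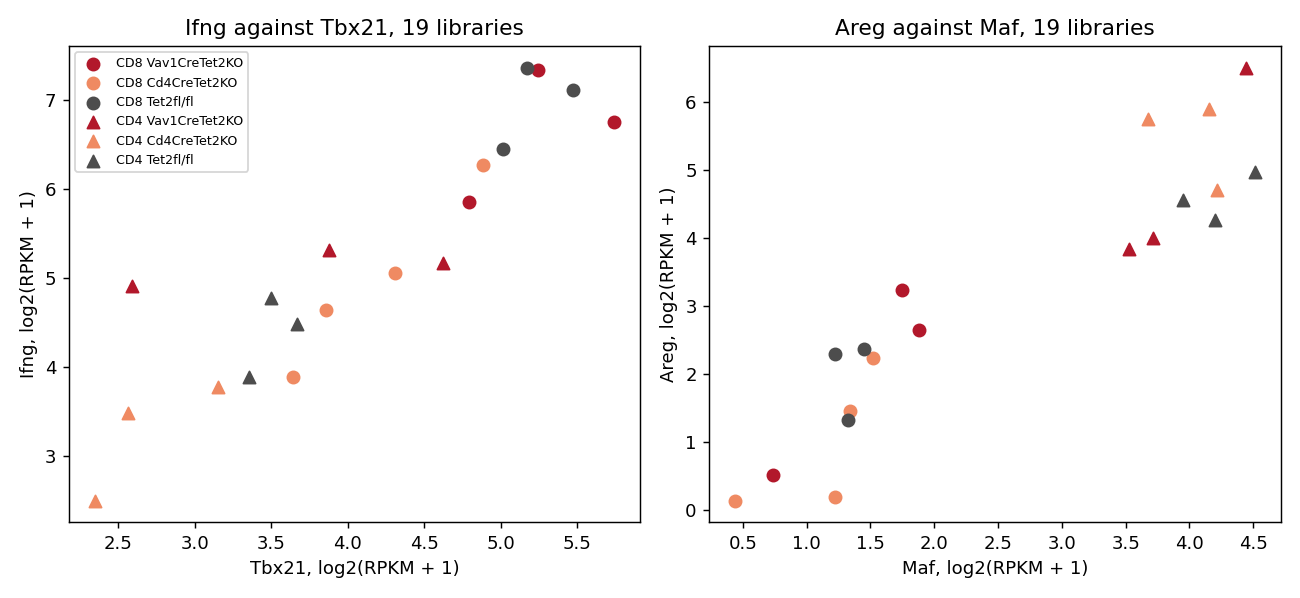
Ifng against Tbx21 and Areg against Maf, both axes log2(RPKM + 1), in 19 libraries (circles CD8, triangles CD4, colours genotypes). Ifng is high where Tbx21 is high within both cell types (r = 0.932 in CD8 and 0.715 in CD4), and the Areg points fall into a low CD8 cloud and a high CD4 cloud.

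Some of the genes that separated in CD8 cells sit in or next to cytokine clusters. As the tables place them, with a build they do not name and that differs from GRCm38, Il4 (53493809 to 53509496, minus strand), Il13 (53522151 to 53525529, minus strand) and Csf2 (54138097 to 54140493, minus strand) lie on chromosome 11. Il4 and Il13 are 12654 bases apart and Il13 and Csf2 612567 bases apart. Il2 (37174672 to 37180108, minus strand) and Il21 (37276908 to 37286785, minus strand) are 96799 bases apart on chromosome 3. Il13 was read in CD8 controls where its neighbour Il4 was not, and Il2 was read in 6 of 7 CD8 knockout libraries where its neighbour Il21 was not. Ifng is on chromosome 10 (118276951 to 118281797, plus strand), Il10 on chromosome 1 (130947582 to 130952711, plus strand) and Areg on chromosome 5 (91287458 to 91296291, plus strand).

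The 250 bases before the start of Ifng, Il13 and Il2 were searched for the core of an NFAT site, GGAAA, on both strands, and for the AP-1 site TGANTCA. They are 3 of the 4 genes whose ranges did not meet between Cd4CreTet2KO and Tet2fl/fl CD8 cells. The window of the fourth, Csf2, held 2 matches to GGAAA and is not shown, because the bases just after its RefSeq start were not found near the start of any Csf2 transcript of the GENCODE annotation. RefSeq windows of GRCm38.p6 were available for 7 of the 8 genes, not for Il10. The 3 windows shown lie at chr10:118440796-118441045 (plus strand), chr11:53634703-53634952 (minus strand) and chr3:37125955-37126204 (minus strand), and matches to GGAAA or its complement are in capitals.
Ifng: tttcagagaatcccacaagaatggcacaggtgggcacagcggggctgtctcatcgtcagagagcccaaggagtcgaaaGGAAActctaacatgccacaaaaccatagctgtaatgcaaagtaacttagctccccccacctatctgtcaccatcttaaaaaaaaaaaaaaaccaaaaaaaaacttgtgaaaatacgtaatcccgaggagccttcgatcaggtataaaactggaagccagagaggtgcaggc
Il13: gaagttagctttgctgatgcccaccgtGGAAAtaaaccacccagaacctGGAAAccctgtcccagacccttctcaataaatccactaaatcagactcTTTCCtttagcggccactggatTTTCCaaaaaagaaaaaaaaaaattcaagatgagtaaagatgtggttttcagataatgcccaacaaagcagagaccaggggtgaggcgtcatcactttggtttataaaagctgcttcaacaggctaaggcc
Il2: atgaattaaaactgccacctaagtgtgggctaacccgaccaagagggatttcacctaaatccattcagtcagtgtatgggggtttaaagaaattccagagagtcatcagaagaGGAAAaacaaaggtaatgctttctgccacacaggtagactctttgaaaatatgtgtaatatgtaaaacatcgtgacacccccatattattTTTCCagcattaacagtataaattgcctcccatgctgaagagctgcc
The Ifng window held 1 match, the Il13 window 4 and the Il2 window 2. Among genes not shown, Il21 held 3, Areg 1 and the Il4 windows 0 and 5, so many matches were not particular to the genes shown. Of 32851 windows of the same length, 55.6% held at least 1 and 1.59% at least 4. The AP-1 motif, which 6.75% of windows held, was in none of the 3 windows shown, which says only that those letters are not in them.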

How the data were processed

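RNA of sorted T cells was made into strand-marking total RNA libraries and sequenced as read pairs, per the labels' protocols. The authors deposited RPKM values for CD8 libraries, and both gene counts and RPKM values for CD4 libraries, per the file headers; the sources used here name no aligner or counter and do not say whether counting used strand. The submitters' processing notes name GRCm38 and mm10, but gene coordinates in the tables differ from that build. The authors' fold changes and FDR values were quoted as deposited. A further 18 per-sample columns of the tables were not used. CD8 groups were compared with limma 3.58.1 (trend) on log2(RPKM + 1), for genes with at least 1 RPKM in at least 3 CD8 libraries; CD4 groups with edgeR 4.0.16 (quasi-likelihood, TMM, filterByExpr) on the counts; the interaction with limma over 19 libraries. All groups of a table entered 1 fit. An edgeR SE is the log2 fold change divided by the square root of F. P-values were adjusted by Benjamini-Hochberg over all genes tested, at a threshold of 0.05. Scaling CD8 RPKM by the gene lengths that CD4 counts imply gave whole reads within 0.05 for 100% of 134905 values, on which edgeR and DESeq2 1.42.0 were run as alternatives. Depths are whole reads assigned to genes, and floors of 3 reads cover counting error only. Where counts come in pairs, the floor is fewer fragments than reads. The limma CD8, edgeR CD4 and limma interaction fits were tried on simulated data for the Vav1CreTet2KO comparisons. The DESeq2 fits and the other alternatives were not.

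The 8 genes, the gene lists and the alternatives were chosen with earlier results of these data known. Genes outside the 8 were named by a rule: of each list at most 3 called genes, or the 1 of smallest p, and the 3 genes of highest r for each cytokine averaging at least 1 RPKM, of which 1 is not reported here; Jun, Egr2 and Nr4a3 are that list's genes of smallest p in CD8 comparisons, and Il1rl1, Foxp3, Cd3e and Cd4 define marker lists. Replicates are separate mice. Replicate numbers did not pair libraries: deviations of libraries with the same number correlated between -0.077 and 0.063 in CD8 cells and between -0.084 and 0.0996 in CD4 cells (9 pairs each). Deviations of CD8 and CD4 libraries of the same mouse correlated between -0.061 and 0.332 (8 pairs), and the block of mouse enters the interaction as an alternative.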

Additional observations from a re-analysis of the deposited data

Results flagged for a closer look

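Among the 6 cytokine genes with a value above 0 in CD8 Cd4CreTet2KO cells, the only group of 4 libraries, 2 had 1 library far from the other 3. Il10 was 1.17 RPKM in replicate 1 and at most 0.181 RPKM in the others. Il13 was 0.0373 RPKM in replicate 1, which is 2 reads, and 0 in the others. Chance alone sets 1 library apart in about 1 in 20 groups of spread values. Il10 was above 0 in only 2 of the 4 libraries, so that rate does not strictly hold for it. For Il13, any read in 1 library beside 3 at 0 sets that library apart, and no such rate applies. Both fall in the library with the highest sums of macrophage and monocyte markers (350.3 RPKM) and of innate lymphoid markers (40.3 RPKM) among the 10 CD8 libraries. Il1rl1, the defining gene of the innate lymphoid list, was at 0.114 RPKM there, against 0.695 to 0.899 RPKM in the CD8 controls. Other genes of that list therefore made up most of its sum. The part of macrophages or innate lymphoid cells in either value was not tested.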

How the results depend on the processing

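For the 18 fold changes of cytokine genes given above, 96 of 107 values under other settings and 198 of 209 values with 1 replicate left out kept their direction and their side of the threshold; 7 and 2 passed where the reported value did not, and 4 and 9 changed sign. The sign changes were all of differences that did not pass. Areg in CD8 Vav1CreTet2KO was -0.049 with a pseudocount of 0.1 and -0.41 to 0.95 with 1 replicate left out, and Ifng there -0.669 to 0.072. In CD4 Vav1CreTet2KO Areg ran from -0.54 to 1.16 with 1 replicate left out. Il10 there was -0.49 with the replicate block, -0.023 with the compared groups only, -0.52 with limma and -1.48 to 0.92 with 1 replicate left out, and in CD4 Cd4CreTet2KO -1.02 to 0.31. Cytokine genes called against Tet2fl/fl were 0 as reported. In CD8 Vav1CreTet2KO they were 1 with the replicate block, 1 without Cd4CreTet2KO replicates 1 and 2, 2 with DESeq2 and 0 to 1 with 1 replicate left out. In CD8 Cd4CreTet2KO they were 2 with the compared groups only, 3 with DESeq2 and 0 to 1 with 1 replicate left out. Between the CD4 knockouts 1 was called with DESeq2 and 1 with no filter. Counts over all genes moved more. CD8 Vav1CreTet2KO had 149 genes, and 87 with the smaller pseudocount, 20 with no filter, 90 with the replicate block, 809 with DESeq2 and 91 with edgeR, both run on recovered reads, and 0 to 234 with 1 replicate left out, the 0 being without Tet2fl/fl replicate 1. CD8 Cd4CreTet2KO had 58, and 13, 8, 0 and 286 with the smaller pseudocount, no filter, the replicate block and the compared groups only, 0 without replicates 1 and 2, 542 with DESeq2, and 0 to 153 with 1 replicate left out. Between CD8 knockouts there were 0, and 2 with the compared groups only, 62 with DESeq2 and 0 to 1 with 1 replicate left out. CD4 Vav1CreTet2KO had 1, and 454 with DESeq2, 383 with no filter, 3 with the replicate block, 2 with limma and 0 to 819 with 1 replicate left out. CD4 Cd4CreTet2KO had 4, and 26, 37, 8 and 2 with DESeq2, no filter, the compared groups only and limma, and 0 to 4 with 1 replicate left out. Between CD4 knockouts there were 9, and 405, 403, 3 and 4 under those settings and 2 to 719 with 1 replicate left out, the highest counts of both CD4 Vav1CreTet2KO comparisons being without its replicate 3. The interaction called 0 for Vav1CreTet2KO, and 1 with the smaller pseudocount, 4 with no filter, 9 with the block of mouse, 4 in the 8 mice with both cell types with that block and 0 to 155 with 1 replicate left out. For Cd4CreTet2KO it called 7, and 2 with the smaller pseudocount, 0 in the 8 mice and 0 to 9 with 1 replicate left out. The causes were not tested. Csf2 in CD8 Vav1CreTet2KO passed with the replicate block (adjusted p = 0.0415), and no other cytokine call changed with it. Depth limits Il13, Il2, Il4 and Il21, whose values are at most 78 reads in any library. It also limits Csf2 in CD4 Vav1CreTet2KO replicate 1, at 4 reads.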
